A study of Drosophila melanogaster with 8 samples.

Results

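Isolated islands of H3K9me2 were regions called higher in NelfA*/+ fly heads that lay away from the regions called common with control siblings. Isolation refers to these calls only, and some islands lay within pericentromeric heterochromatin. An island was a region of the NelfA*/+-higher list whose gap to the nearest common region on the same sequence exceeded 1000 bp, or whose sequence had no common region. By this rule, 1546 of the 9363 regions higher in NelfA*/+ (16.5%) were islands, out of 31871 regions in all 3 lists, of which 29.4% were higher in NelfA*/+. Membership was thus chosen by measured values, namely the direction of the call and the place of the common calls. Score, length and position relative to common regions are therefore given as descriptions.

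The series profiled H3K9me2 by ChIP-seq in whole heads of male flies at Day 50 of adult life, with 2 ChIP and 2 input libraries in each genotype. NelfA*/+ flies (+/+; +/NELF-A*) are heterozygous for the P-element insertion KG09483 in Nelf-A, a line backcrossed to the w1118 strain. Their control siblings (+/+; +/+) come from the same crosses, share that background and carry no insertion. Each replicate pooled many heads and therefore many cell types, so more of the mark per cell and more cells with the mark cannot be told apart. The deposited values are 3 lists of regions, higher in NelfA*/+, higher in control siblings and common, each with 1 score per region. No list holds a value per library, so no spread between replicates, depth or test can be given. Values of the islands are set beside the same values in the other lists where these were computed. Counts of TE families, shares of genes and the makeup of the highest scores were computed for islands only. Only the NelfA*/+-higher list was split by distance to common regions. Contrasts of islands with control-higher regions therefore mix the direction of the call with that distance. The name and scale of the score are not given in the sources used here. It was above 1 in every differential region, and a higher score is read here only as a higher rank within a list. The rule read no bases and no annotation. It did take every NelfA*/+-higher region on a sequence without a common region, and all 145 such islands lay on scaffolds. Those scaffolds gave no region to the other NelfA*/+-higher group. Contrasts in repeats between these groups are therefore partly set by the rule.

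H3K9me2 is laid down by histone methyltransferases and bound by HP1 proteins, and it packs satellite repeats and transposable elements (TEs) around centromeres into silent heterochromatin. On the gene-rich arms of fly chromosomes the mark is sparse, and it appears there as short patches over TE copies and some genes. NELF-A belongs to the complex that holds RNA polymerase II paused just after the start of genes, and the Hsp70 genes are the classic example of such pausing in flies.

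The islands fell into a few kinds of sequence, and 7 of them are shown here because the results below turn on them. Positions are on build BDGP6, counted from 1, and each sequence is read from the RefSeq copy of that build on the forward strand. The first 3 are repeats. The island with the highest score lay in a copy of the 17.6 retrotransposon (chr3L:23827008-23827217). Capitals mark the bases that lie in at least 1 stretch of 31 bases of the island found only once in the genome. The second is the middle of the highest-scoring island on 3R (chr3R:160188-160367), and capitals mark a 12-base sequence described below. The remaining repeat lay next to the start of the long non-coding RNA gene lncRNA:CR43912 (chr3L:13292113-13292338), and capitals mark the tetranucleotide repeat GATAGATA.
17.6 copy: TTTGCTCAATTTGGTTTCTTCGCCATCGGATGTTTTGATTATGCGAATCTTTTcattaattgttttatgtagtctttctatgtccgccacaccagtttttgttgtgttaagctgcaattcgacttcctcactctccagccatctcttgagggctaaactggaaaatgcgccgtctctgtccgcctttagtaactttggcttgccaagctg
3R repeat: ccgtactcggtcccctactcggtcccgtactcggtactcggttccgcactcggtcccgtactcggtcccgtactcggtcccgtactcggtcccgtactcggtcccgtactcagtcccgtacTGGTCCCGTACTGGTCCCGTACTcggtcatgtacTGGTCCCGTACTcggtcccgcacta
GATA repeat: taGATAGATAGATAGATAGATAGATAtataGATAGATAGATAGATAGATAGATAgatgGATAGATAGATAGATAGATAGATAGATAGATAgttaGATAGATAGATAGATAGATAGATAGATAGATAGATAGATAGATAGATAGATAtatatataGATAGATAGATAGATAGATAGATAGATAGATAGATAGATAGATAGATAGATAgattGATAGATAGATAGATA

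The other 4 were coding sequence. The island of Hexo2, which encodes a hexosaminidase that trims sugar chains, lay farther from any common region than every other island with such a distance (chrX:8711417-8711699), and the whole of it is in capitals because each stretch of 31 bases in it occurs once in the genome. The island of Eip75B, a nuclear receptor induced by the hormone ecdysone, had the highest score among coding islands that hold CAGCAGCAG or its reverse complement, which capitals mark (chr3L:18058801-18059029). The island of dpp, a signalling ligand of the BMP family, is shown by its middle for its GC content, and holds none of these marked letters (chr2L:2457940-2458239). The island of Hsp70Bb, a copy of the main heat-shock chaperone gene, is also shown by its middle (chr3R:12506903-12507202). Capitals mark bases that lie in no 31-base stretch of the printed window shared with the coding sequence of Hsp70Aa, another copy. A capital near an end of the window can still lie in a shared stretch that runs past that end.
Hexo2: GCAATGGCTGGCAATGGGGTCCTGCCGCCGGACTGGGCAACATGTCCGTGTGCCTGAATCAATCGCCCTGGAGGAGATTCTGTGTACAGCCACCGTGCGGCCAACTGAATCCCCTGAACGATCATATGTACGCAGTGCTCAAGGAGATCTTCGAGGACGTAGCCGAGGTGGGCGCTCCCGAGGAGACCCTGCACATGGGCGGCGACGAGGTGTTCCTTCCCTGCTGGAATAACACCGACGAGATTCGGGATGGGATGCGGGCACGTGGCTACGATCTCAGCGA
Eip75B: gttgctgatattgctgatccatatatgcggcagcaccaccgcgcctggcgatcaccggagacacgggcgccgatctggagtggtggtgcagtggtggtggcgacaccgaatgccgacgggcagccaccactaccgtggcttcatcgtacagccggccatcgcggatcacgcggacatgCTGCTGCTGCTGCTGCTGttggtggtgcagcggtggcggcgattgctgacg
dpp: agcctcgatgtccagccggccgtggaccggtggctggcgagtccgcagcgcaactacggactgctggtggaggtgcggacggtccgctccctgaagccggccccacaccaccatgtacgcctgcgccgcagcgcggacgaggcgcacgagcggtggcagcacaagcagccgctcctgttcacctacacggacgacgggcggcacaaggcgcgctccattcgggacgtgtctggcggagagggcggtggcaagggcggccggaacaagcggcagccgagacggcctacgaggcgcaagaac
Hsp70Bb: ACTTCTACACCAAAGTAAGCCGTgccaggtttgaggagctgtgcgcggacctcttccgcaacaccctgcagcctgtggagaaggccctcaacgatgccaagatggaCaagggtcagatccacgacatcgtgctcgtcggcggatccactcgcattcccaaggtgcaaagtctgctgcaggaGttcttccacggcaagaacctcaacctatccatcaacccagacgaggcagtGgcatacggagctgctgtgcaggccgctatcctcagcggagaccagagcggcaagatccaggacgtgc

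The islands were short and mostly single. Their length had a median of 276 bp and a range of 200 to 6113 bp, and they covered 672 kb. The other regions higher in NelfA*/+ had a median length of 309 bp, regions higher in control siblings 263 bp and common regions 381 bp. The score of the islands had a median of 2.84, with quartiles of 2.12 and 3.97 and a range of 1.11 to 104. The median score was 2.25 in the other regions higher in NelfA*/+ and 2.04 in regions higher in control siblings. Of the islands, 145 lay on scaffolds with no common region. Among the other 1401, the gap to the nearest common region had a median of 3959 bp and quartiles of 1765 and 14017 bp, and 42 islands lay more than 100 kb away. At the limit of the rule, the islands just inside had gaps of 1001 bp, and the regions just outside had gaps of 997 and 995 bp. Of the regions that were not islands, 6112 overlapped or touched a common region. Most islands, 1200 (77.6%), were also more than 1000 bp from every other region higher in NelfA*/+. Joining islands less than 1000 bp apart left 1412 clusters, of which 1304 held 1 island and 18 held 3 or more.

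Most islands lay on the gene-rich arms, outside the 5 Mb at the centromeric end of each arm. The arms held 1004 islands (64.9%), the 5 Mb pericentromeric parts 302 (19.5%), scaffolds 195 (12.6%), Y 41 (2.65%) and chromosome 4 held 4. Of the 333 islands of at least 400 bp, 41.1% lay on the arms. Of the other regions higher in NelfA*/+, 33.1% lay on the arms, against 16.4% of regions higher in control siblings and 28.5% of common regions. Common regions crowd around centromeres, so a rule on the distance to them takes more regions from the arms by its construction. For this reason the islands are compared with the other lists within the arms below.

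The X arm differed from the autosomal arms in how many of its NelfA*/+-higher regions were islands. On the X arm, 167 of 333 such regions (50.2%) were isolated, against 172 of 672 on 2L (25.6%), 197 of 914 on 2R (21.6%), 243 of 902 on 3L (26.9%) and 225 of 772 on 3R (29.1%). The number of islands per Mb was close on all 5 arms. It was 9.01 on X, 9.29 on 2L, 9.71 on 2R, 10.5 on 3L and 8.31 on 3R. Both other kinds of region were sparser on X. The other NelfA*/+-higher regions numbered 8.95 per Mb on the X arm, against 27.0 on 2L, 35.3 on 2R, 28.5 on 3L and 20.2 on 3R. Common regions numbered 22.6 per Mb on the X arm, against 61.0 on 2L, 78.0 on 2R, 66.8 on 3L and 45.3 on 3R. The median gap of arm islands to a common region was 14663 bp on X and between 4087 and 5576 bp on the autosomes. Males have a single X, and the part that its copy number plays in these counts was not tested.

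**Figure D1:**
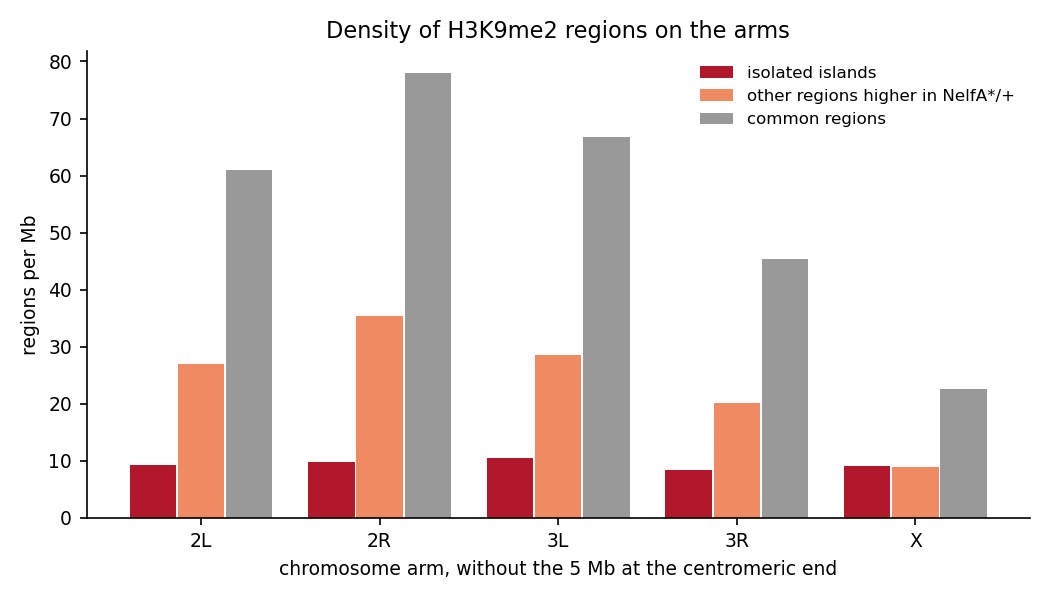
Regions per Mb on each arm outside the 5 Mb at its centromeric end, for isolated islands, other regions higher in NelfA*/+ and common regions. The islands stand at 8.31 to 10.5 per Mb on every arm, while the other NelfA*/+-higher regions range from 8.95 per Mb on X to 35.3 on 2R and common regions from 22.6 per Mb on X to 78.0 on 2R.

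The islands farthest from a common region were all on X. The Hexo2 island shown above lay 228 kb from the nearest common region, with a score of 1.62 and a GC content of 60.4%. An island in an intron of lncRNA:CR44357 lay 221 kb away (score 2.46), and an island 1.62 kb from the start of CG3795 lay 189 kb away (score 1.93). An island in a coding exon of Tis11, whose protein promotes decay of mRNAs with AU-rich elements, lay 186 kb away with a score of 2.40. Each of these 4 was made only of 31-base stretches found once in the genome. The remaining one, in an intron of the allatostatin A receptor gene AstA-R1, lay 190 kb away with a score of 2.64, wholly inside a copy of the retrotransposon roo. Every stretch of 31 bases in it occurred elsewhere in the genome as well. Their scores, 1.62 to 2.64, were all below the median of the islands.

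Repeats made up much of the highest scores, beside some coding sequence. Of the 25 highest-scoring islands of the main chromosomes, 8 held the dodeca sequence described next, 7 overlapped a TE and 4 were coding. Of the 100 highest, 20 held it, 16 overlapped a TE and 39 were coding. The coding ones included 2 of the 10 highest. The island 148 bp from the start of CG32189 had a score of 27.7, with 83.8% of its stretches of 31 bases found more than once, and the island 77 bp from the start of CG13465 had a score of 16.1, with 48.9% found more than once.

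A 12-base sequence, AGTACGGGACCA or its reverse complement TGGTCCCGTACT, was the commonest 12-base sequence of the islands, with 8391 copies in 143 islands (9.25%). It occurs in the dodeca satellite, a GC-rich tandem repeat of the centromere of chromosome 3 whose units differ slightly in length. Within islands, 59.2% of neighbouring copies on the same strand started 11 bases apart, so that they overlapped by 1 base, and copies are counted with such overlaps. This sequence was found after the islands had been examined. It lay in 160 of the other regions higher in NelfA*/+ (2.05%), in 0 of the 1796 regions higher in control siblings and in 112 common regions (0.541%). Scaffolds without a common region could give islands but none of the other NelfA*/+-higher regions, so these shares are partly set by the rule. Of the 143 islands with the 12-base sequence, 114 lay on 81 scaffolds, and the other 29 were among the 30 islands of the first 350000 bases of 3R. They made up 36.9% of the bases covered by islands. Their median score was 7.74 and their median length 1390 bp, against 5.32 and 1052 bp for the other NelfA*/+-higher regions with the repeat. Of the 51 islands with a score of at least 10, 37 held it.

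Among the main chromosomes, the dodeca islands included all 5 of the longest. These ran from 2591 to 4952 bp, held 48 to 201 copies of the 12-base sequence and had scores of 5.42 to 7.92. The highest-scoring one, shown above by its middle, had a score of 43.6 and a length of 991 bp, and 2 others on 3R scored 25.1 and 18.6. A scaffold mapped to the centromere of chromosome 3 (3Cen_mapped_Scaffold_36_D1605) carried 5 islands with scores of 15.3 to 43.9 over 13993 of its 36913 bases. Of the stretches of 31 bases in a dodeca island, a median of 94.9% occurred more than once in the genome. A read that fits several copies cannot be placed at 1 of them. How the authors' aligner assigned such reads is not given in the sources used here. The authors' reads were paired and longer than 31 bases, so the share of such reads is not known. The copy number of the satellite in each genotype was not tested.

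**Figure D2:**
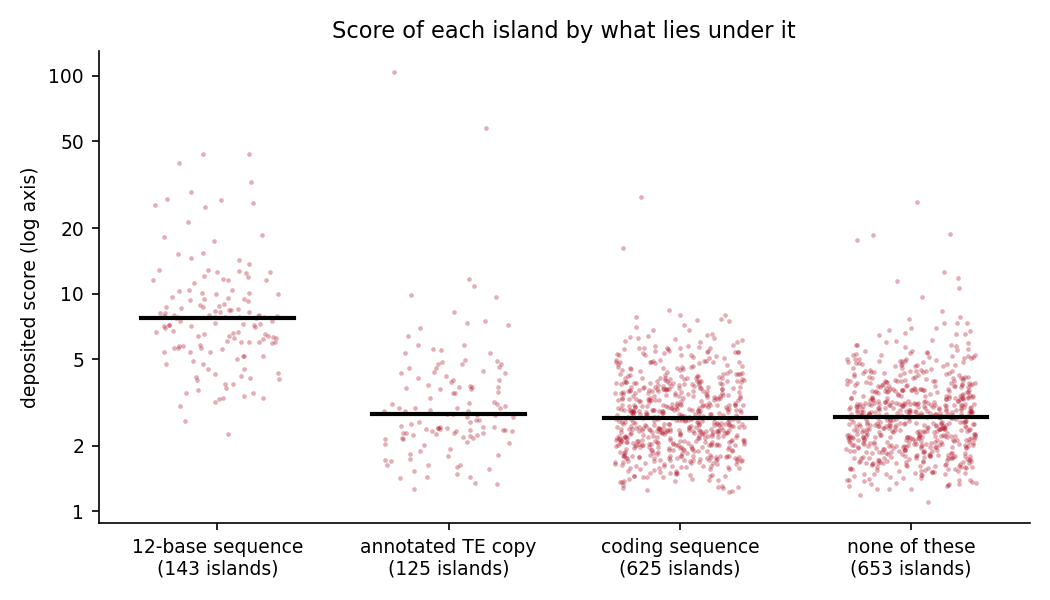
Deposited score of each of the 1546 islands (log axis, 1 point per island, bar at the median), grouped by whether the island holds the 12-base sequence, overlaps an annotated TE copy, has its midpoint in coding sequence or has none of these. The islands with the repeat have a median of 7.74, and the other groups have medians of 2.79, 2.67 and 2.71.

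Annotated TEs lay under a minority of islands but under the top 2 scores. The annotation used here places only 7 TE copies on scaffolds, and the shares depend on it. None of the 195 scaffold islands overlapped a copy. The paper, with a TE annotation of its own, reports that most of the NelfA*/+-higher list overlaps known TEs. The shares below are far lower and cannot be set beside that value. An annotated TE copy overlapped 125 islands (8.09%), 108 of them wholly inside the TE. The share was 10.6% of the other regions higher in NelfA*/+, 7.68% of regions higher in control siblings and 10.8% of common regions. Soft-masking of the genome, which also covers satellites and simple repeats, took in at least 50% of 19.7% of islands, 19.7% of the other NelfA*/+-higher regions, 41.0% of control-higher regions and 24.1% of common regions. On the arms an annotated TE lay under 6.18% of islands, against 8.57% of the other NelfA*/+-higher regions, 10.8% of control-higher regions and 10.2% of common regions. Among the 25 highest-scoring islands of the main chromosomes 7 overlapped a TE (28.0%), against 122 of all 1310 islands there (9.31%). The island in 17.6, an LTR retrotransposon, had the score of 104 with a length of 210 bp, and 87.2% of its stretches of 31 bases occurred elsewhere. The next, in a copy of the LTR retrotransposon opus in an intron of the zinc finger gene jim, had a score of 57.9, and all of its stretches occurred elsewhere.

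Which copies of a family carried the mark cannot be resolved where the sequence is repeated. The 125 islands named 58 families, 25 of which were named once. The families named most often were INE-1 and opus with 12 islands each, 1360 and HMS-Beagle with 7 each and 17.6 with 6. INE-1, a short element found all over the fly genome, has 2235 annotated copies, whereas opus has 44, HMS-Beagle 24 and 17.6 29. The scores of opus islands ran from 2.02 to 57.9, and 11 of the 12 lay on the arms. Scores of INE-1 islands ran from 1.57 to 4.18. Islands over the gypsy group of retrotransposons numbered 10 and those over the diver group 4. Annotated copies number 13 for diver, 22 for gypsy, 16 for gypsy2 and 17 for gypsy4. They number 16 for gypsy6, 56 for gypsy8 and 51 for gypsy12. Regions over any of these families or groups were not counted in the other lists. Whether a family is more frequent in islands than in those lists was therefore not tested.

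On the arms, islands sat mainly in genes and their coding exons. By midpoint, 358 of 1004 arm islands (35.7%) were within 1000 bp of a transcription start, 346 (34.5%) in other exons, 144 (14.3%) in introns and 156 (15.5%) between genes. For the other regions higher in NelfA*/+ these shares were 30.6%, 46.2%, 9.54% and 13.7%. Regions higher in control siblings had 28.8%, 30.5%, 16.3% and 24.4%, and common regions had 31.9%, 37.7%, 12.3% and 18.1%. When the arms were cut into windows of 300 bp, 26.8% of windows were near a start, 17.0% in other exons, 35.8% in introns and 20.4% between genes. All 4 groups of regions held more exons and fewer introns than the arms themselves, and the islands had the highest share near starts. That share depends on its definition. Within 500 bp of a start lay 19.5% of arm islands, 15.9% of the other NelfA*/+-higher regions, 14.9% of control-higher regions and 17.4% of common regions. With exons counted first, the shares near a start were 8.27%, 5.21%, 7.46% and 5.93% in the same order. Coding sequence lay under the midpoint of 582 arm islands (58.0%), against 67.8% of the other NelfA*/+-higher regions, 46.8% of control-higher regions, 59.4% of common regions and 19.5% of the windows.

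**Figure D3:**
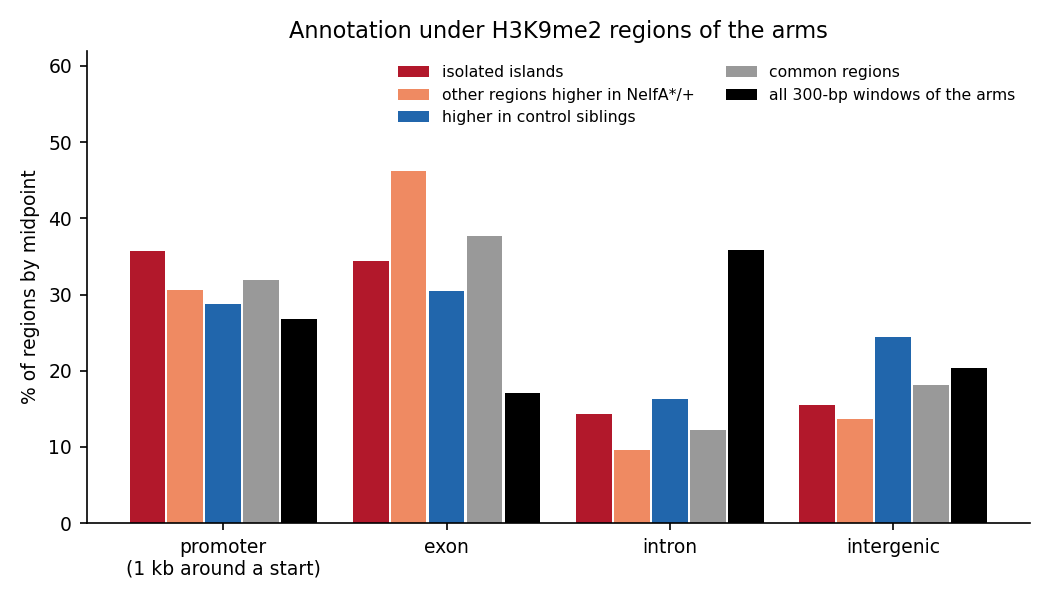
Share of regions (%) whose midpoint falls near a transcription start, in another exon, in an intron or between genes, for the 4 groups of regions and for all 300-bp windows, on the arms only. Islands have 35.7% near starts and 34.5% in exons, against 26.8% and 17.0% of the windows.

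The islands of the arms were GC-rich. Their median GC content was 54.9%, against 54.0% in the other regions higher in NelfA*/+, 47.3% in regions higher in control siblings, 52.9% in common regions and 42.7% in the windows of the arms. The upper end differed more than the median. A GC content of at least 60% was found in 216 arm islands (21.5%), 12.8% of the other NelfA*/+-higher regions, 1.69% of control-higher regions, 9.22% of common regions and 1.76% of the windows. Coding sequence is richer in GC than the rest of the arms, so the comparison was repeated within it. At least 60% GC was found in 35.6% of coding arm islands, 18.3% of the other coding NelfA*/+-higher regions, 3.62% of coding control-higher regions, 14.7% of coding common regions and 8.54% of coding windows. Restricting the arms to regions in which at most 10% of the stretches of 31 bases were repeated kept 908 islands, with a median GC content of 55.2% and at least 60% GC in 22.7%. The other 3 lists then had 13.5%, 1.95% and 9.96% in the same order. Base composition thus moved with the call, and the part that the composition of the libraries plays in it was not tested, since no value per library and no input value was used here. Score did not follow GC content among these 908 islands. The median score was 2.74 below 50% GC and 2.70 at 60% GC or more. In the other NelfA*/+-higher regions under the same restriction it was higher with GC, with medians of 2.13 below 50% GC and 2.40 at 60% GC or more.

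**Figure D4:**
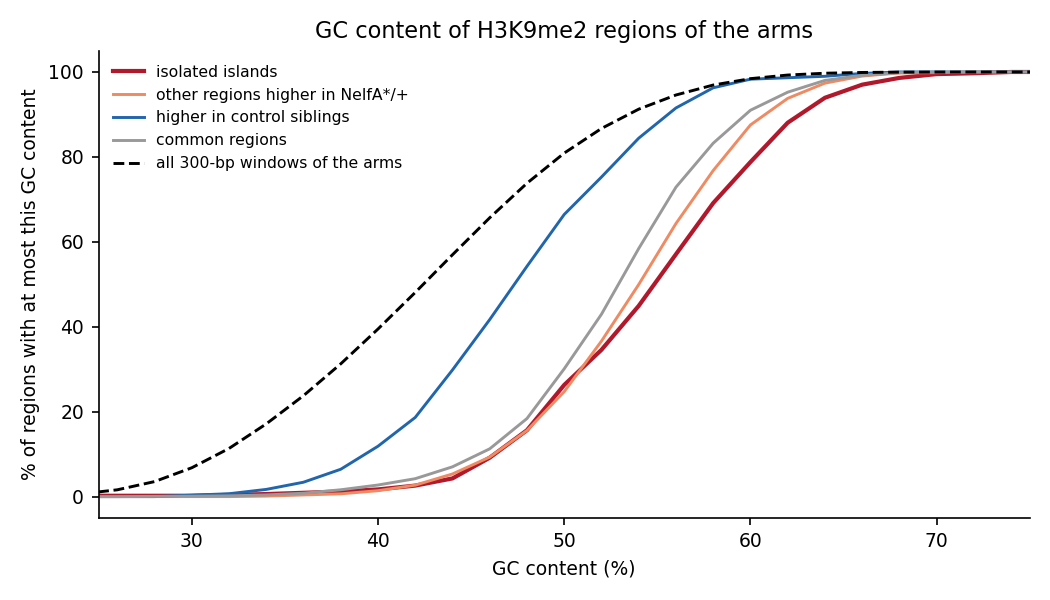
Cumulative share of regions (%) with at most the GC content on the horizontal axis (%), for the 4 groups of regions and for all 300-bp windows, on the arms only. The curve of the islands lies furthest right above 55% GC, with 21.5% of islands at 60% GC or more, and that of control-higher regions lies nearest the windows.

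Of 4 short sequences searched in 300-bp windows around each midpoint, on both strands, CAGCAGCAG, which in coding sequence often encodes glutamine repeats, was in a higher share of islands than of each other list, over all sequence and on the arms. It was in 88 islands (5.69%), 3.02% of the other NelfA*/+-higher regions, 0.724% of control-higher regions, 1.83% of common regions and 1.54% of 13985 promoter windows of protein-coding genes. In coding islands of the arms it was in 57 of 582 (9.79%), against 6.21% of the other coding NelfA*/+-higher regions, 2.17% and 4.45% of coding control-higher and common regions and 6.50% of coding windows. The coding island of Eip75B, shown above, had a score of 8.43 and a GC content of 64.2% and lay 60.9 kb from a common region. GAGAG, the core of the sites of GAGA factor, was in 32.5% of islands, 38.0% of the other NelfA*/+-higher regions, 26.9% of control-higher regions, 36.7% of common regions and 29.6% of promoters. On the arms the 4 groups of regions were close, with 35.4%, 34.8%, 35.6% and 37.4% in the same order. CACACACA was in 2.26% of islands, 2.29% of the other NelfA*/+-higher regions, 0.835% of control-higher regions, 1.98% of common regions and 4.01% of promoters. Its shares on the arms were 2.49%, 2.16%, 1.02% and 2.27% in the same order. TATATATA was in 1.81% of islands, 1.45% of the other NelfA*/+-higher regions, 2.06% of control-higher regions, 1.63% of common regions and 5.13% of promoters. Its shares on the arms were 1.39%, 0.425%, 2.37% and 0.78% in the same order. None of the 4 sequences contains another, and a match is a description of the letters only.

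The genes with most islands were of different kinds. In heterochromatin, the gene lovit, which encodes a vesicular histamine transporter of photoreceptors, held 7 islands and the myosin gene Myo81F held 6. These genes are 434041 and 1965857 bp long, and their islands were scattered, 1025 to 2888 bp from a common region. Islands were a small part of their NelfA*/+-higher regions, 7 of 137 in lovit (5.11%) and 6 of 510 in Myo81F (1.18%), against 16.5% of the whole list. The genes also held 294 and 1408 common regions. On Y, Ppr-Y held 5 islands, with 27 further NelfA*/+-higher and 80 common regions. The dynein gene kl-5 held 4 islands, with 19 and 57 such regions. Another 4 islands were in nvd, which encodes an enzyme of ecdysone synthesis, with 18 further NelfA*/+-higher and 49 common regions in the same gene.

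On the arms, in cora, which encodes a protein 4.1 family member of septate junctions, all 4 islands were in coding exons and lay 84.4 to 86.3 kb from a common region, and the gene held no region of any other kind. Their scores were 1.41, 1.46, 1.24 and 3.23 and their GC contents 59.7%, 51.2%, 55.9% and 58.6%. All 4 islands of CG15822 were likewise in coding exons, 7.42 to 11.1 kb from a common region, with scores of 3.43, 3.95, 4.90 and 1.65 and no other listed region in the gene. Of the 4 islands of ich, which encodes a zinc finger protein, 3 were coding, with scores of 2.45, 2.54 and 3.63. In contrast, the 4 islands of cv-c, a RhoGAP gene, and those of rols, a gene of myoblast fusion, were outside coding sequence, with GC contents of 45.3% to 48.1% and 46.2% to 49.8%. These genes were not marked by islands alone. The gene rols also held 7 other NelfA*/+-higher, 18 common and 2 control-higher regions, and cv-c held 1, 7 and 1 in the same order. In ich there was also 1 common region. All of the islands in these 5 genes consisted only of stretches of 31 bases found once in the genome.

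Protein-coding genes with an island in the gene body or within 1000 bp numbered 1026 of 13986 (7.34%). They had a median length of 5818 bp, against 2162 bp for all protein-coding genes, and a longer gene offers more room for an island. Counts of gene lists are set beside this share and the length of their genes. No gene of the polymerase pausing list (0 of 14, median length 2492 bp), Nelf-A included, and none of 3 control genes, RpL32, white and yellow, had an island.

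The synapse list had islands at 6 of 24 genes (25.0%), with a median gene length of 34626 bp. At brp, the scaffold of presynaptic active zones, a coding island had a score of 3.18 and a GC content of 65.1%, and an intron island a score of 3.52. At Rim, another active zone gene, the coding island scored 2.52 and the intron island 2.57. Among channels, the voltage-gated calcium channel gene cac had a coding island with a score of 2.43, and the potassium channel genes Sh and SLO2 had islands with scores of 3.77 and 1.45. The SLO2 island also lay within CG12902 and CG43397, 272 bp from a transcription start. The neuronal RNA-binding gene fne had 3 islands within its 1000-bp bounds, with scores of 2.21, 3.32 and 1.72. The first 2 lay in copies of HMS-Beagle, and the last was in coding sequence past the end of fne. All of the fne islands were at least 123978 bp from a common region.

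Genes that Polycomb proteins silence outside their domains of use had islands at 4 of 25 (16.0%), with a median gene length of 18198 bp. The dpp island, coding and with 68.6% GC, scored 7.98, the highest among islands of the preset genes, and lay 1938 bp from a common region. The island of salm, a transcription factor gene of wing and eye patterning, was coding, 643 bp long and 66769 bp from a common region, with a score of 3.60. The ligand gene hh had a coding island near its start with a score of 2.58 and an intron island with a score of 2.98, and ey, the regulator of eye development, had a coding island with a score of 3.28. In the remaining lists, rhi, which encodes the HP1 relative that marks piRNA clusters, had 1 intron island (score 3.38) and was the only one of 18 genes of H3K9 methylation. BomS1, an immune peptide gene, was the only one of 19 immune genes, by an island that lay downstream of it, within 1000 bp, in the coding sequence of the neighbouring gene BomBc2 and scored 3.04. Of 16 photoreceptor genes, chp, the gene of the rhabdomere adhesion protein chaoptin, had 2 coding islands with scores of 1.53 and 1.83.

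Of 23 heat-shock genes, 3 had islands, and all were neighbouring copies of Hsp70 on 3R. Hsp70Bbb had 1 island with a score of 1.82, Hsp70Bb 1 with a score of 7.47 and Hsp70Bc 2 with scores of 4.29 and 3.07. All 4 lay in coding sequence, 28.5 to 31.6 kb from the nearest common region, and no other listed region of any kind was within 5 kb of these genes. The 3 remaining copies, Hsp70Ba, Hsp70Aa and Hsp70Ab, had no region of any list within 5 kb. Over the islands, the Hsp70B copies share most stretches of 31 bases with each other and fewer with Hsp70Aa and Hsp70Ab. Every stretch of 31 bases in the 4 islands occurred more than once in the genome. Those of the Hsp70Bb island were found at 100% in Hsp70Bbb, 89.5% in Hsp70Bc, 89.5% in Hsp70Ba and 56.8% in Hsp70Aa and Hsp70Ab. Those of the Hsp70Bc islands were found at 91.1% and 100% in Hsp70Ba, and at 21.3% and 34.0% in Hsp70Aa and Hsp70Ab. Which of the copies the reads came from is therefore uncertain, most of all among the Hsp70B copies.

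**Figure D5:**
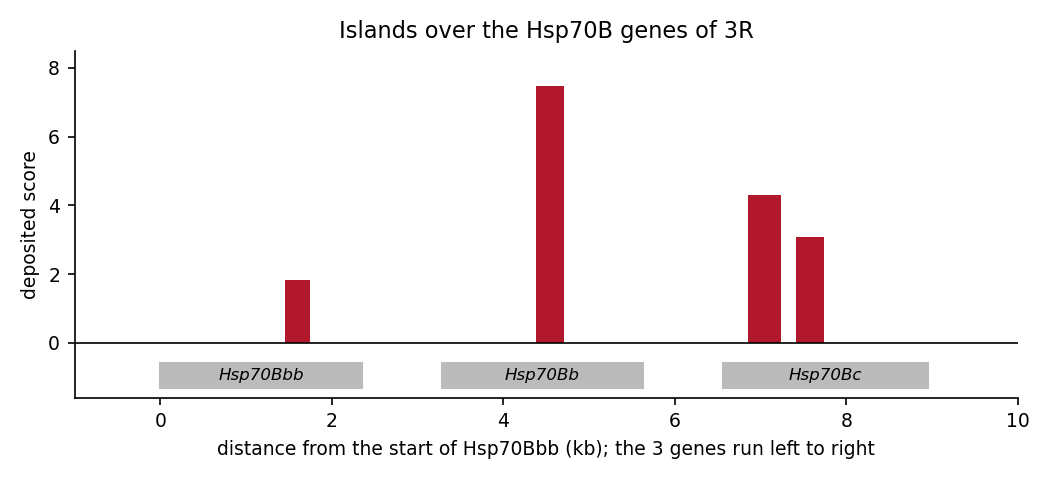
Score (vertical axis) of the 4 islands over Hsp70Bbb, Hsp70Bb and Hsp70Bc (grey boxes), drawn to scale by distance in kb from the start of Hsp70Bbb. The islands sit inside the gene bodies with scores of 1.82, 7.47, 4.29 and 3.07.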

How the data were processed

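H3K9me2 ChIP-seq libraries of NelfA*/+ and control sibling heads were mapped by the authors to BDGP6 with STAR (v2.5). Peaks were called with MACS2 (v2.1.1; fragments extended to 200 bp, broad mode) and compared with MACS2 bdgdiff (gap 100, length 200). Tool versions are per the submitters' processing notes. The deposited score of each region has no named scale, and whether replicates were pooled is not given in the sources used here. Lists were tied to genotypes because their numbers of regions equalled those stated in the study. Depth is unknown, and input libraries and signal tracks were not used here.

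Members, gene lists and alternatives were chosen with earlier results of these data known. Gaps, overlaps and midpoints were computed against the Ensembl annotation (release 115) and the RefSeq sequence of the same assembly, in which all 1490 sequence names were found, with 0 regions past an end. Midpoints were assigned in the order promoter (1000 bp), exon, intron, intergenic. Promoter windows for motifs ran from 250 bp before each protein-coding gene's start. Repetition was the share of a region's 31-base stretches found more than once in the genome, on either strand.

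Named were the 10 highest-scoring, 5 longest and 5 most distant islands of the main chromosomes (of the highest-scoring, those described are a selection), the 10 genes with most islands (10 genes had 4, and ties went by bases covered, which left out l(3)80Fg, l(3)80Fj and Snap25), and preset genes with an island. Python 3.11.15, numpy 2.4.6, pandas 2.3.3 and matplotlib 3.10.9 were used. The code was tested on simulated intervals and sequences.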

Additional observations from a re-analysis of the deposited data

How the results depend on the processing

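No test was made, so an alternative is counted as a change when a count moved by over 1.5 times or a share or median left the 95% interval that the number of islands gives. Of 131 values under 15 alternatives, 51 stayed and 80 moved, and of the 66 that concern score, length, exons, introns, intergenic sequence and the share of the list, 41 moved. A gap of more than 500 bp gave a median GC content of 53.3%, 62.2% on the arms and 23.8% in promoters. A gap of more than 2000 bp gave 55.2% GC and 69.0% on the arms. A gap of more than 5000 bp left 761 islands, with 56.5% GC, 69.3% on the arms and 5.65% over a TE. A score of at least 3 left 694, with 55.6% GC, 58.9% on the arms and 22.9% in promoters. A length of at least 400 bp left 333, with 59.2% GC, 41.1% on the arms, 15.0% in promoters, 5.71% over a TE and 24.6% with a motif. The main chromosomes alone gave 76.6% on the arms, 30.5% in promoters and 41.8% with a motif. Merging neighbours gave 53.4% GC, and isolation from the whole NelfA*/+-higher list gave 53.5% GC and 68.7% on the arms. A promoter of 500 bp gave 14.5% in promoters, and counting exons first gave 6.47%. A pericentromeric limit of 2 Mb put 75.7% on the arms, and counting islands that were at least 50% soft-masked in place of annotated TEs gave 19.7%. The next settings were chosen after seeing the data. Without regions that hold the 12-base sequence, GC was 53.0%, with 71.6% on the arms, 28.6% in promoters and 42.4% with a motif. With at most 10% of 31-base stretches repeated, 1028 islands were left, with 55.0% GC, 88.3% on the arms, 35.3% in promoters, 1.26% over a TE and 44.2% with a motif. No paired analysis was possible because the lists hold no value per library.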

Other observations

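Short tandem repeats other than the dodeca satellite also lay under islands, and were examined after the values had been seen. An exact tandem run of at least 100 bp with a unit of up to 12 bases was in 82 islands (5.30%), 56 of the other NelfA*/+-higher regions (0.716%), 0 control-higher regions and 28 common ones (0.135%). Of these 82 islands, 70 held the dodeca sequence. Runs without it were in 12 islands, 3 of the other NelfA*/+-higher regions, 0 control-higher regions and 18 common regions. The 12 islands had scores of 1.76 to 17.6 and GC contents of 19.2% to 46.5%, and 10 were on scaffolds without a common region. The unit AATAG was found in 5 of the 12. Units of AATAGAC were found in an island of Y that was 1298 bp long, with a score of 7.31, and in a scaffold island with a score of 7.31. Among the 10 highest scores of the main chromosomes, 2 islands were AGAT repeats, with scores of 18.5 on 3L and 12.5 on 2R in lncRNA:CR45232.

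In flam, the piRNA locus that silences gypsy-like elements in ovarian follicle cells, 3 islands lay in introns with scores of 2.28, 2.04 and 3.19, 1.81 to 3.80 kb from a common region. They were chosen after their values were seen. All 3 were wholly inside TE copies, of Stalker2 and 412, of Stalker4 and of the F element, and at least 86.4% of their stretches of 31 bases were repeated in the genome.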
